A study of Bos taurus with 2 samples.

Results

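The genes described here are SMIM20, listed in the files under its older symbol C6H4orf52, and 7 further assembly factors of cytochrome c oxidase: SURF1, COX10, COX15, COX17, SCO1, SCO2 and COX11. They were found by the gene name that the scanner tables give to each non-control probe. Of the 8 genes, 7 had a probe under their name, with 13 of the 51282 probes and 15 of the 61657 spots, out of 32429 gene names in the files. SMIM20 had 3 probes in 4 spots, the other 6 genes had 10 probes in 11 spots, and COX17 had none under its name. SMIM20 was chosen because it differed between the arrays of this study, so its difference is given as a description and supports nothing further.

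The study measured sperm RNA of HF crossbred breeding bulls (Bos taurus) on bovine 8x60k oligonucleotide arrays. One group was high fertile and the other low fertile, with 1 array each, and the number of bulls behind an array, their ages and the measure of fertility are not given in the sources used here. Both arrays held column-purified, DNase-treated total RNA, primed with oligo-dT and labelled with Cy3, and both lay on one slide. With 1 array per group there is no replicate and no test, and every difference describes this pair of arrays.

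Cytochrome c oxidase, or complex IV, is the last enzyme of the mitochondrial respiratory chain and passes electrons to oxygen. It is built stepwise around COX1, a subunit made inside the mitochondrion that carries haem A and copper. SMIM20, also called MITRAC7, is a small inner-membrane protein that holds newly made COX1 in an assembly intermediate together with COX14 and COA3, and it is also the precursor of the peptide phoenixin. SURF1 acts in the maturation of COX1, COX10 and COX15 make haem A, COX17 hands on copper, SCO1 and SCO2 deliver it to COX2, and COX11 delivers it to COX1. In sperm the mitochondria are wrapped around the midpiece of the tail.

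The SMIM20 probes are shown because the results turn on how the separate sequences read one gene. They lie on chromosome 6 of build HGSC Btau_3.1, at chr6:46735200-46735259, chr6:46735325-46735384 and chr6:46735474-46735533, and are called the first, the second and the third probe in that order. They span 334 bases, with gaps of 65 and 89 bases, so they do not overlap. The first 30 of the 60 bases of each, as given in the deposited scanner tables, were these:

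the first probe: atgaagctgtctcactcagctggacttgaa
the second probe: ttgccatcctccaaataggaaatttcaggg
the third probe: attaggaaggttgctgcatgttgggatata

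No probe of another gene shared 16 bases with any of the 3 (count 0). GC content was 41.7% in the first, 45% in the second and 36.7% in the third probe. The third probe had a stop codon in each forward reading frame, and the first and second had 1 forward frame each without one. Exons and UTRs of this build were not analysed here, so whether a probe lies in coding sequence or UTR is not stated.

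SMIM20 was lower in the high-fertile array with every probe. Values are the scanner's processed signals in linear units, each with the scanner's own error for the spot. The first probe read 48.1 ± 6.95 in the high-fertile and 190 ± 20.3 in the low-fertile array. The second probe read 101 ± 11.4 in the high-fertile and 375 ± 38.1 in the low-fertile array. On both probes the low-fertile signal was the higher by far more than these errors, and all 4 signals were well above background. The third probe was printed in 2 spots, which read 19.1 ± 5.47 and 15.1 ± 6.03 in the high-fertile array, where neither was well above background. In the low-fertile array the same spots read 114 ± 13.5 and 116 ± 14.8, both well above background.

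Differences are given as log2, high-fertile minus low-fertile, after each array was divided by the 75th percentile of its signals, taken over probes that both arrays measured well above background. The first probe differed by -1.66, a 3.15-fold lower level with the high-fertile RNA. The second probe differed by -1.56 and was 2.95-fold lower. The third probe, set against the lowest signal well above background, was at least 4.07-fold lower. The gene value, over the first and second probes, was -1.61 with an SD of 0.07 between the 2 probes, or 3.05-fold lower. For comparison, the high-minus-low difference of single spots varied within a probe with an SD of 0.28, over 3038 probes. That of single probes varied within a gene with an SD of 0.42, over 1872 genes. These are spreads within the arrays and leave out the spread between bulls. In sperm RNA of this kind, fewer cells with the transcript and less transcript per cell cannot be told apart.

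**Figure D1:**
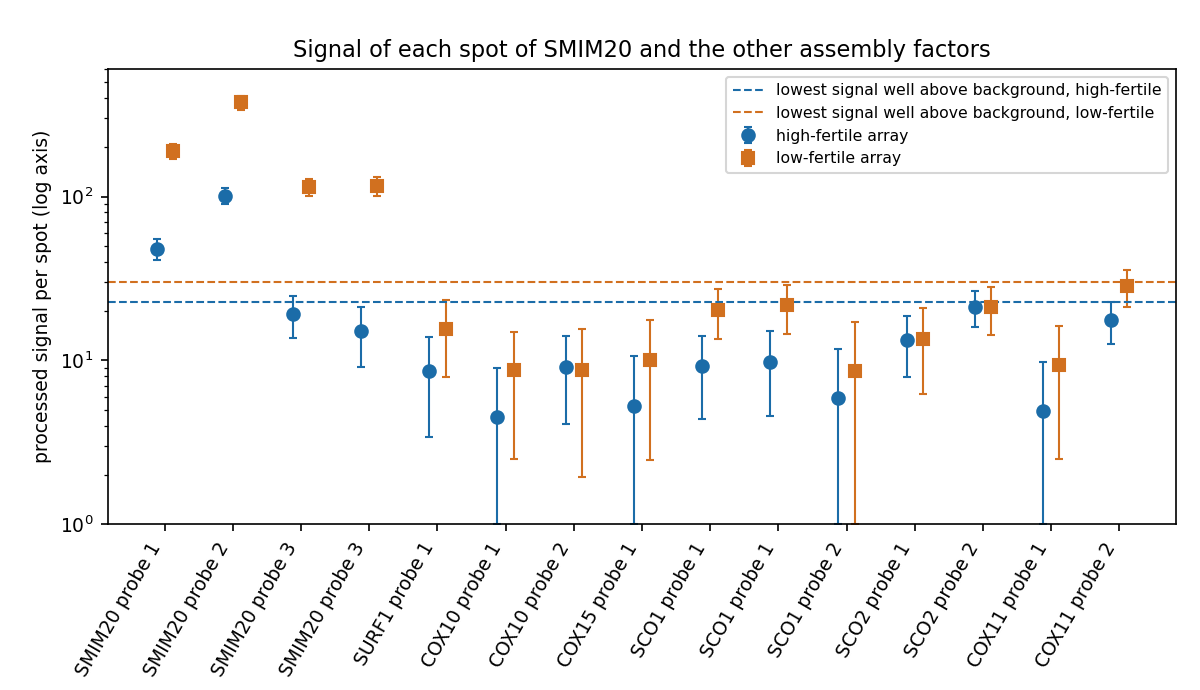
Processed signal of each spot (log axis) of SMIM20 and of the other assembly factors with a probe under their name; circles are the high-fertile and squares the low-fertile array, bars are the scanner's error for the spot (cut at the lower axis limit for dim spots), and dashed lines mark the lowest signal of a probe well above background on each array, 22.6 and 30.3. The 4 SMIM20 spots are between 114 and 375 in the low-fertile array, while every spot of the other genes is at or below 28.4.

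SMIM20 was the only gene of the 7 with a probe well above background on both arrays (14.3%; over all gene names the share was 36.6%). The 7 were counted by the name in the files, and the share of all genes is over 31644 names after renaming by accession or symbol. SMIM20 was thus 1 gene at least 2-fold lower of 1 measured. Of all 11590 measured genes, 4.32% were at least 2-fold apart in either direction and 2.44% were at least 2-fold below the low-fertile array in the high-fertile one, but as SMIM20 was chosen on this difference nothing is read from that. Including SMIM20, 54 measured genes had a difference as low or lower. Among the 1872 genes with at least 2 measured probes, 5 were as low or lower, and 10 (0.534%) had every measured probe at least 2-fold lower, again with SMIM20 counted. At 4-fold, which 0.276% of measured genes passed, SMIM20 was not counted. Single probes give 3.93% at least 2-fold lower, bounds included, among the 18251 probes well above background on at least one array.

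The other assembly factors gave no level to set beside SMIM20. None of their 10 probes was well above background on either array (count 0), with signals of 4.5 to 21.3 in the high-fertile and 8.57 to 28.4 in the low-fertile array. No fold is given for them, and a low signal here says only that the transcript was not measurable with these probes.

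SURF1, on chromosome 11, read 8.66 in the high-fertile and 15.6 in the low-fertile array. Of the haem A enzymes, COX10 on chromosome 19 read 4.5 and 9.09 with its 2 probes in the high-fertile array, and 8.77 and 8.71 with the same probes in the low-fertile array. COX15, whose probe has no position in the files, read 5.31 and 10.1. The scanner errors of these probes were about as large as several of the signals, as for COX15 with 5.33 in the high-fertile and 7.64 in the low-fertile array.

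Among the copper factors, SCO1 on chromosome 19 had one probe in 2 spots, which read 9.21 and 9.8 in the high-fertile and 20.4 and 21.8 in the low-fertile array, and a second probe that read 5.89 and 8.57. SCO2, on an unplaced scaffold, read 13.3 against 13.5 with one probe and 21.3 against 21.2 with the other. COX11 on chromosome 19 read 4.89 against 9.32 with one probe. Its second probe, at 17.7 ± 5.1 against 28.4 ± 7.24, had the brightest low-fertile signal of these genes, still under the lowest signal of a probe well above background on that array (30.3).

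The scanner software called 7 of the 11 spots of these genes significantly above background in the high-fertile and 10 in the low-fertile array, a weaker criterion than well above background, and replaced the signal by a substitute value in 4 and 1 of them.

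COX17 and a further SURF1 sequence could be found under transcript identifiers, by their descriptions or by the reference table. The COX17 probe, at chr1:65400404-65400463, read 5.05 in the high-fertile and 6.86 in the low-fertile array. The SURF1 probe had 2 spots that read 14 and 18.3 in the high-fertile and 23 and 21.7 in the low-fertile array. None was well above background, as with the probes that carry the genes' own names.

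The place of the spots on the glass bears on the third SMIM20 probe. Around the first and second probes, none of the 8 adjoining spots was at least 2-fold apart (count 0). One spot of the third probe lay at the end of a run of spots lower in the high-fertile array: of its 8 neighbours 2 were at least 2-fold lower, and of the 79 spots within 4 rows and columns 11 were. Those neighbours were IQCK, a calmodulin-binding-motif gene, at 9.14 against 135, and a transcript without a symbol at 5.63 against 67.3. The other spot of the third probe had no neighbour at least 2-fold lower (count 0) and 1 higher, GOLIM4, a Golgi membrane protein, at 61.6 against 37.3. Taken alone, that other spot gives at least 4.1-fold lower, against at least 4.04-fold for the spot beside the run. The gene value of -1.61 does not use the third probe.

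**Figure D2:**
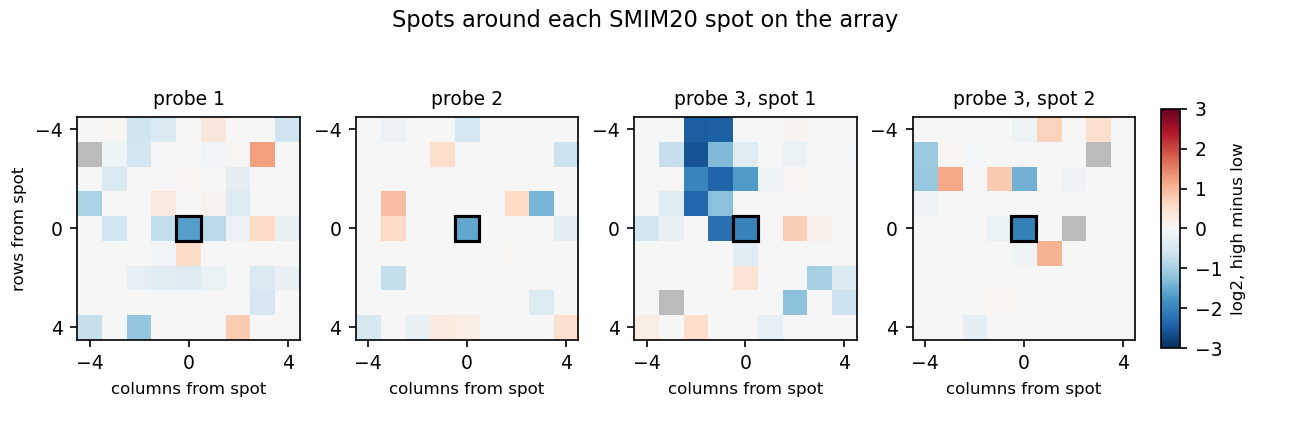
Map of the spots within 4 rows and columns of each SMIM20 spot (outlined), coloured by the log2 difference, high-fertile minus low-fertile, with a signal below the lowest well-above-background level set to that level; near-white squares are spots with no difference or with neither array well above background; grey squares are control or left-out spots. A run of blue squares adjoins spot 1 of probe 3, with 11 of 79 spots at least 2-fold lower, against 1 of 80 around probe 2, 1 of 79 around probe 1 and 3 of 78 around spot 2 of probe 3.

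Of 35 further assembly factors of complex IV, 34 had a probe and 12 were measured on both arrays. None was at least 2-fold higher or lower (count 0; 4.32% of all measured genes were). Their median was -0.17, with 5 above 0 and 7 below, against a median of 0.0 over all measured genes, and it changed sign with the stricter filter on dim probes (0.14 over 6 genes). The range was -0.33 to 0.74. Every one of the 12 was nearer 0 than SMIM20, but as SMIM20 was chosen on its difference nothing is read from that. Factors well above background on one array only, TMEM177 among them, are outside this range and are given below.

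COX14 and COA3 are the partners of SMIM20 on newly made COX1. COX14 read 339 ± 34.4 in the high-fertile and 280 ± 29 in the low-fertile array, a difference of 0.60 after scaling, which is opposite in sign to SMIM20 and falls to 0.01 with spike-in scaling. COA3 was well above background in the low-fertile array only, at 38.9 against 22, so that high-fertile RNA was lower by at least 1.37-fold. COA1, another early COX1 factor, differed by -0.14 (SD 0.35 between probes), or by 0.11 with its brightest probe alone.

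PET100, a small protein that helps the subunits come together, had the largest positive difference, 0.74, from one probe at 147 ± 15.4 against 111 ± 12.7. The spots of a second PET100 probe did not repeat it, reading 47 ± 6.56 against 45.8 ± 7.65 and 25.7 ± 5.89 against 53.4 ± 9.18. CMC2 differed by -0.33 (60.9 against 96.1), and SLIRP, which binds mitochondrial messenger RNA, by -0.32 (30.4 against 47.5). FDX2, the ferredoxin of the haem A step, differed by -0.21 (158 against 229). The values of CMC2, SLIRP and FDX2 came from 1 probe each. They were smaller than the SD of 0.42 among probes of one gene, so their direction is not read. FDXR, the reductase of FDX2, differed by 0.48 (SD 0.42 between probes at 0.18 and 0.77), which turns to -0.12 with spike-in scaling.

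A further 5 of these factors were well above background on one array only, 3 of them with high-fertile and 2 with low-fertile RNA. TMEM177, which acts on COX2, read 11.4 ± 6.2 in the high-fertile and 236 ± 25.4 in the low-fertile array, at least 8.34-fold lower. Of all 1369 genes above background on the low-fertile array only, 16.7% had a bound of 2-fold or more. The TMEM177 spot lay in a patch, with 3 of its 8 neighbours at least 2-fold lower and 1 higher, and the part of the patch in its value was not tested. CHCHD4, which imports and oxidises copper-binding factors such as COX17, was at least 1.64-fold higher in the high-fertile array (39.8 ± 6.17 against 12.9 ± 6.9), SLC31A1, a copper importer, at least 1.63-fold and CMC1 at least 1.24-fold. None of these 3 reached the 2-fold bound that 7.3% of the 1369 genes above background on the high-fertile array only had. The SLC31A1 bound came from 1 of its 3 probes (39.3 against 18.3). Another read the other way, 24.5 against 46.2 (-0.59), and the last was dim at 5.12 against 6.93 (-0.11). The CMC1 bound also came from 1 of 3 probes (29.9 against 12.6). Its others were dim, at 5.24 against 7.69 (-0.23) and 4.53 against 6.1 (-0.1). These other SLC31A1 and CMC1 probes passed the filter on dim probes in neither array.

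**Figure D3:**
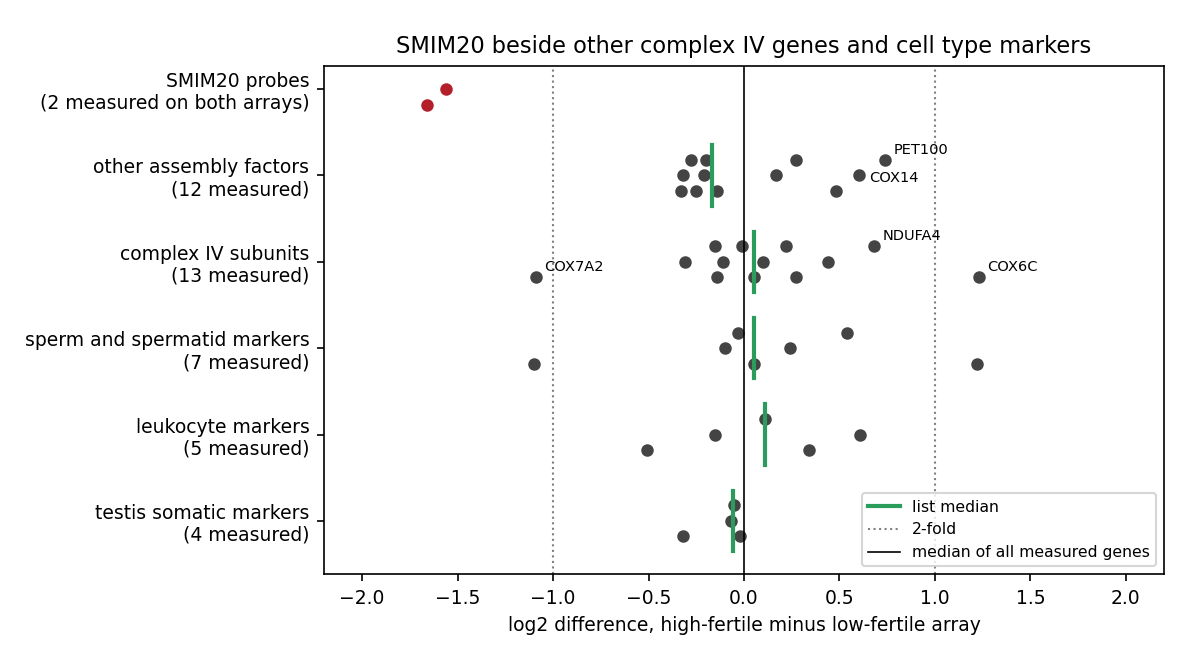
Log2 difference, high-fertile minus low-fertile, of the measured SMIM20 probes and of each gene measured on both arrays in the lists of other assembly factors, complex IV subunits and cell type markers; points are probes for SMIM20 and genes otherwise, short vertical lines are list medians, and dotted lines mark 2-fold. The SMIM20 probes are at -1.66 and -1.56, while the other assembly factors run from -0.33 to 0.74 and the subunits from -1.09 to 1.23.

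The subunits of complex IV differed in both directions. Of 22 subunits, 20 had a probe and 13 were measured on both arrays. COX6C, a structural subunit listed as MGC148714, was the 1 gene at least 2-fold higher in the high-fertile array, where 1.88% of all measured genes were. Its one spot read 255 ± 26.1 against 137 ± 15.6, a difference of 1.23 or 2.34-fold, which fell short of 2-fold with normexp background correction (0.91) and with spike-in scaling (0.63). COX7A2, the widely expressed form of subunit 7A, was the 1 gene at least 2-fold lower, by -1.09 (SD 0.21 over 3 probes), or 2.13-fold. It fell short of 2-fold with normexp (-0.61) and, narrowly, with the 75th percentile over all probes or the series matrix (-0.99), and had no measured probe under the stricter filter. Its probes read 63.3 against 187, 63.8 against 183 and 29.5 against 66.9, with differences of -1.23, -1.19 and -0.85. All of its spots were thus lower in the high-fertile array. The probes at -1.23 and -1.19 overlap, at chr9:14624798-14624857 and chr9:14624803-14624862, so they are not separate readings of the gene. The probe that lies apart from them, at -0.85, fell short of 2-fold.

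The median of the 13 subunits was 0.05, with 7 above 0 and 6 below, and it changed sign with loess normalization (-0.01), without a filter on dim probes (-0.05 over 20 genes) and with spike-in scaling (-0.55). NDUFA4 had the next largest positive difference, 0.68 (47.9 against 37.6), from 1 of its 4 probes. Another probe, well above background in the high-fertile array only, read 52.1 against 27.3, and the rest were dim (-0.09 and -0.16). The NDUFA4 difference fell to 0.33 with normexp and to 0.08 with spike-in scaling. COX7C had the next largest negative difference, -0.31 (SD 0.27 over 3 probes), smaller than the SD of 0.42 among probes of one gene. COX6B2, the testis form of subunit 6B, differed by 0.27 (SD 0.40 between probes), or -0.33 with spike-in scaling. COX5B differed by 0.05 (SD 0.24 over 5 probes), or -0.01 with loess normalization and -0.55 with spike-in scaling. COX6A2, the heart and muscle form of subunit 6A, was well above background in the high-fertile array only, where it was at least 1.42-fold higher. Of the subunits encoded in mitochondrial DNA, COX1, the subunit that SMIM20 holds, had no probe under its name, COX2 was not well above background, and COX3 was so in the low-fertile array only, with high-fertile RNA lower by at least 1.27-fold.

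The nearest measured named genes on chromosome 6 lay 474 kb or more from SMIM20 and did not share one direction. The nearest measured genes before it were PI4K2B, a lipid kinase, at 571 kb with 0.89, SOD3, the extracellular superoxide dismutase, at 992 kb with -0.12, and PPARGC1A, a coactivator of mitochondrial biogenesis, at 2001 kb with -1.48. After it came RBPJ, the Notch pathway transcription factor, at 474 kb with 0.10, CCKAR, a cholecystokinin receptor, at 511 kb with 0.15 (SD 0.58), and PGM2, a sugar phosphate mutase, at 12665 kb with 0.17 (SD 0.71). The values of SOD3, RBPJ, CCKAR and PGM2 were smaller than the SD of 0.42 among probes of one gene, so their direction is not read. The value of PPARGC1A came from 1 measured probe, which read 72.1 ± 8.52 in the high-fertile and 252 ± 25.9 in the low-fertile array. Its second probe was well above background in the low-fertile array only, at 10.1 ± 5.44 against 67.3 ± 10.2. No spot beside either probe was at least 2-fold apart (count 0).

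Cell type markers lay on both sides of 0. Of 10 sperm and spermatid markers 7 were measured, with a median of 0.05, TNP2 at 1.22 and PRM1 at -1.1. AKAP4, SPATA18 and TSSK6 were not well above background. The 5 measured leukocyte markers of 6 ran from -0.51 to 0.61 (CD3E was not well above background), and the 4 measured testis somatic markers from -0.32 to -0.02. Of the other testis somatic markers, SOX9 had no probe, and WT1 was well above background in the low-fertile array only, with high-fertile RNA lower by at least 1.49-fold. One epithelial marker of 5, KRT8 at 0.35, and one erythroid marker of 3, HBA at 0.17, were measured. EPCAM, CDH1, HBB and ALAS2 were not well above background. KRT5 was so in the high-fertile array only, and KRT18 with different probes on each array. The part of other cells in the SMIM20 value was not tested.

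SMIM20 stayed lower by 2-fold or more under each of 11 other ways of processing, from -2.21 to -1.05. These are not 11 separate checks, as all use the same 2 arrays. Leaving out patches removed no SMIM20 spot and so could not change the value. The series matrix holds the same signals plus a constant and gave -1.50, against -1.51 with the 75th percentile over all probes. The stricter filter and the brightest-probe setting both used the second probe alone (-1.56). The smallest size, -1.05, came from normexp background correction, where the first and the third probes fell short of 2-fold (-0.92 and -0.83) and the second did not (-1.17). The largest, -2.21, came from scaling on spike-in RNA, which moved the median of all genes to -0.60. Relative to the median of all genes SMIM20 ran from -1.76 to -1.08.

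**Figure D4:**
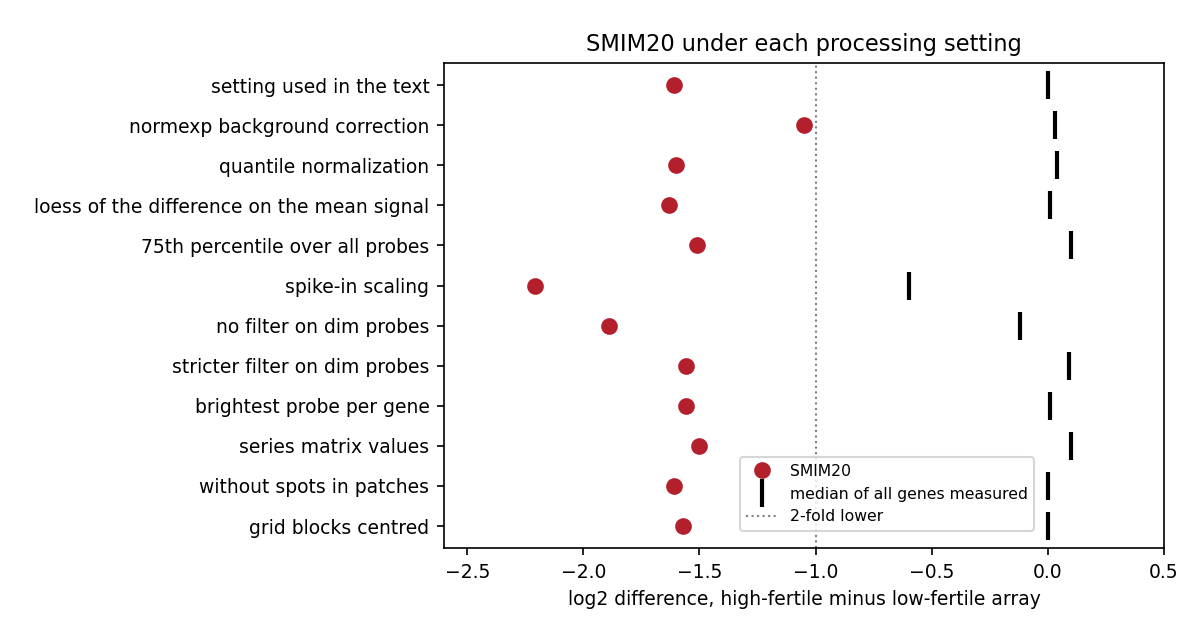
SMIM20 difference (log2, high-fertile minus low-fertile; points) under the setting used in the text and 11 alternatives, with the median of all measured genes (short lines) and the 2-fold line (dotted). Every point is beyond 2-fold, with normexp nearest to the line at -1.05 and spike-in scaling farthest at -2.21, where the median of all genes is at -0.60.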

How the data were processed

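Sperm RNA of high-fertile and low-fertile bulls was hybridised to 1 array each. The deposited scanner tables hold each spot's intensity and its error, made with Agilent Feature Extraction 11.5.1.1 per the file headers. The deposited series matrix holds log2 values, which equalled the log2 processed signals plus one constant per array (-5.12 and -5.55, within 0.01 for 98.6% of probes), with column medians of -1.43 and -1.37.

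Neither control spots nor the 9 spots with an outlier flag were used, and no spot was saturated (count 0). Spots of a probe were averaged, and a probe counted as well above background where all its spots did (31.7% of probes on the high-fertile, 31.5% on the low-fertile array, 27.6% on both). Each array was scaled to its 75th percentile over the probes well above background on both, 148.6 and 186.3. Differences per gene were averaged over probes measured on both arrays, and a bound was used for probes measured on one. Calls were at 2-fold. Probes were named through accession (29882), symbol (5523) or older symbol (149) in a RefSeq table of assembly ARS-UCD2.0, and 15726 kept the file's name.

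The text names every member, each other assembly factor or subunit at least 2-fold apart, the 2 largest differences of these 2 lists in either direction, up to 3 measured neighbours on either side of SMIM20, and adjoining spots at least 2-fold apart; COX14, COA3, COA1, FDX2, FDXR, COX6B2, COX5B, the mitochondrial subunits, the one-array genes and the markers are named for their roles or status, some after their values were seen. Members and lists were chosen with earlier results of these data known. The computation was checked on simulated data with planted 4-fold changes. That check covers direction and scaling and says nothing about calls near 2-fold. Python 3.11.15, pandas 2.3.3, numpy 2.4.6, statsmodels 0.14.6, R 4.3.3 and limma 3.58.1 were used. The number of arrays limits the precision.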

Additional observations from a re-analysis of the deposited data

How the results depend on the processing

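The 12 alternatives were normexp background correction, quantile and loess normalization, scaling on the 75th percentile of all probes or on 7 spike-in probes, no filter on dim probes or a stricter one, taking the brightest probe of a gene, the series matrix, leaving out patches, centring blocks of spots, and a 4-fold threshold. SMIM20 moved by more than the duplicate-spot SD to -1.05 with normexp and to -2.21 with spike-in scaling, and without a filter it was -1.89 over 3 probes. At 4-fold the count of members fell from 1 to 0 (0.276% of all genes passed). The count of subunits at least 2-fold apart, 2 in the text, was 0 with normexp (COX6C 0.91, COX7A2 -0.61) and 0 at 4-fold. It was 1 with spike-in scaling, the stricter filter, the series matrix and the 75th percentile taken over all probes. Of all measured genes, 4.32% passed 2-fold in the text, 1.04% with normexp and 15.7% (15.4% lower) with spike-in scaling. The share was 4.04% with the stricter filter, and 4.28% with the series matrix and with the all-probe percentile. As the share also moved, the counts with normexp and spike-in scaling are not read as a result on subunits. The count of other assembly factors was 0 in the text and 3 without a filter (CHCHD4 higher, TMEM177 and HIGD2A lower), where 7.9% of all genes passed. The cause was not tested. Of 264 single-gene values under the alternatives, 227 moved by less than the duplicate-spot SD of 0.28, and 37 by more. The sign differed from that in the text in 18, of which 8 came with spike-in scaling, and none of these was a gene at least 2-fold apart (count 0; largest size in the text 0.479). Of all genes at least 2-fold apart, 43.5% were higher in the high-fertile array, against 59.3% with the 75th percentile over all probes, 59.7% with the series matrix, 60.3% with normexp, 73.3% with the stricter filter, 30.8% without a filter and 1.87% with spike-in scaling. No paired analysis was possible because each group had 1 array. Signal over background limits most members: of 7 with a probe, 1 could be measured.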
